A study of Mus musculus with 3 samples.

Results

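Alveolar type 2 (AT2) cells of mice exposed to intermittent cigarette smoke (CS) were compared with AT2 cells of mice exposed to air, transcript by transcript. AT2 cells make the surfactant of the lung and serve as stem cells of the alveoli. The members described are the transcript clusters (sets of probes read as 1 gene by the array) that lay at least 2-fold apart between these exposures and whose brighter value was above the level of receptors for smell and pheromones (symbols starting Olfr or Vmn), genes of the nose. They number 324 of 22206 clusters. Of these, 174 were higher with intermittent CS (0.784% of the clusters) and 150 were lower (0.675%). These counts follow from the rule that chose the members and are descriptions.

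The mice were female Sftpc/GFP transgenic animals of mixed CBA/Ca and C57BL6J background, 9 to 11 weeks old, in which green fluorescent protein (GFP) marks cells with an active surfactant protein C promoter. Some cells where the small airways meet the alveoli also carry dim GFP. Intermittent CS was given in weeks 1, 3 and 5 of a 5-week protocol with weeks of air between them, and continuous CS in 3 weeks that followed one another. Control mice breathed air over the same period. Animals were killed 24 h after the last smoke, EpCAM high and GFP high cells were sorted from whole lung, and the cells of 3 mice per exposure were pooled for 1 array. With 1 pooled array per exposure no difference below has an error or a test, and the spread between mice is not known. Values of the continuous CS array stand beside the others for reading only. Both smoke arrays are set against the same air array, so an odd value on the air array would move both differences.

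All values are log2 values as deposited, so a difference of 1 is 2-fold. The median cluster had 5.66 with intermittent CS, 5.70 with continuous CS and 5.68 with air. The receptor level, the 95th percentile of 1414 receptor clusters, was 5.14 with intermittent CS, 5.15 with continuous CS and 5.19 with air, and 12719 clusters (57.3%) lay above it with intermittent CS or air. Among the receptor clusters the standard deviation of the difference was 0.241 and 99% lay within 1.76-fold, against a standard deviation of 0.335 over all clusters. Receptor clusters are mostly dim. Above the receptor level this standard deviation was 0.287 where the brighter value was under 6, 0.432 at 10 to 12 and 0.638 from 16. Exactly equal values with intermittent CS and air were held by 5423 clusters (24.4%). Where the dimmer array lay at or below its receptor level, the fold is written as "at least", the brighter value over that level.

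The sort was checked against 25 AT2 markers, all of which lay far above the receptor level except the exchange factor gene Rasgrf1 at 7.12 with intermittent CS and 7.24 with air. The surfactant protein genes Sftpc, Sftpb and Sftpa1, with Slc34a2, Lyz2 and Lcn2, stood at the highest value the table holds, 19.93, on every array, where a difference could not be read. Sftpd was 18.71 with intermittent CS and 18.54 with air, and Abca3, the lipid pump of surfactant granules, 18.31 with intermittent CS and 18.12 with air. The median difference over the marker list was 0.00, with 8 positive, 8 negative and 9 exactly equal differences. The equal ones include these genes at the ceiling. None of the 25 was a member. Scgb1a1, the secretoglobin of club cells, was 19.61 on all 3 arrays, near the ceiling. The 9 club and goblet cell markers above the receptor level had 7 positive, 0 negative and 2 exactly equal differences. Their median was 0.19, beside a continuous CS minus air median of 0.59, and Hp was the 1 member. Ager, an AT1 cell marker, was 18.23 with intermittent CS and 18.08 with air.

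Most members lay close to the threshold. Of the higher clusters 138 (79.3%) were under 3-fold apart, 23 reached 4-fold and 8 reached 8-fold. Of the lower clusters 111 (74.0%) were under 3-fold, 24 reached 4-fold and 3 reached 8-fold. The median difference was 1.21 over the higher and -1.29 over the lower clusters. The same clusters had a median continuous CS minus air difference of 1.08 for the higher and -0.78 for the lower set, which shares the air array. The dimmer value was at or below the receptor level for 18 of the higher and 19 of the lower clusters. The share of members among clusters above the receptor level differed with brightness. It was 0.783% higher and 1.07% lower where the brighter value was 6 to 8, and 2.99% higher and 2.13% lower at 12 to 14. From 16 it was 3.10% higher and 1.16% lower.

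**Figure D1:**
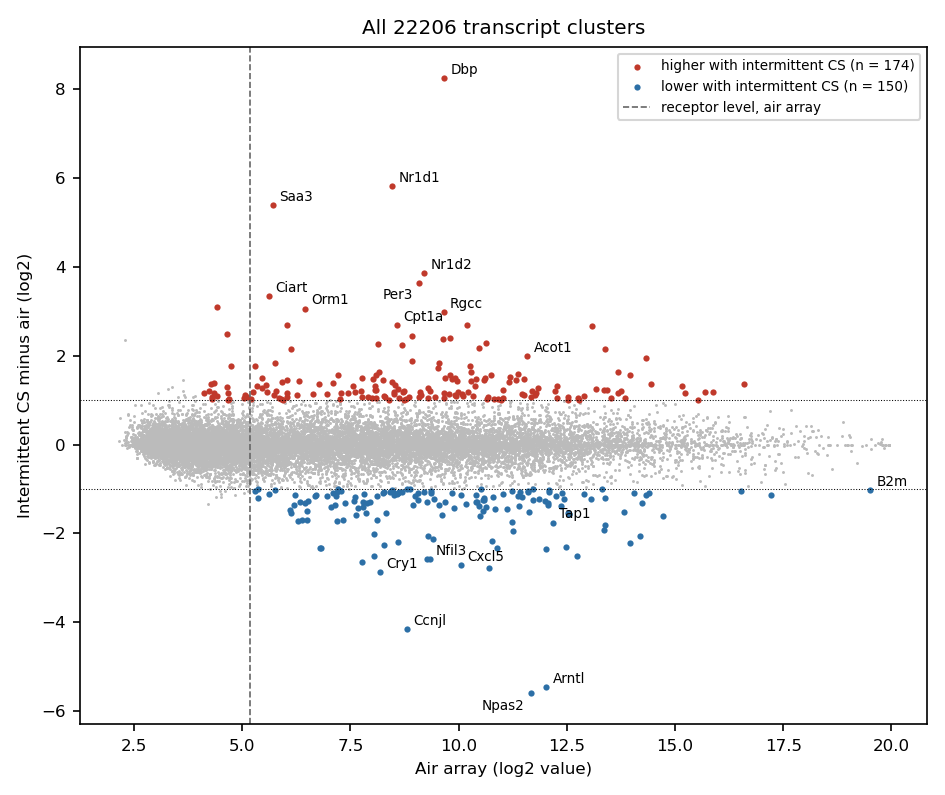
Difference between intermittent CS and air (log2, vertical) against the air value (log2, horizontal) for all 22206 clusters, each 1 point. The 174 higher members are red and the 150 lower members blue, dotted lines mark 2-fold and the dashed line the receptor level of the air array. Dbp at 8.26 and Npas2 at -5.60 lie farthest from 0, and most colored points lie just beyond the dotted lines.

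The genes farthest apart belonged to the circadian clock. In this loop the activators ARNTL (BMAL1), CLOCK and NPAS2 bind E-boxes and switch on the Per and Cry repressors as well as the nuclear receptors NR1D1 and NR1D2, which in turn repress Arntl through ROR elements. DBP activates and NFIL3 represses through D-boxes. Peripheral tissues such as the lung run this loop over the day. Of 13 repressor and output genes of the clock 8 were at least 2-fold higher and 1 lower, and of 6 measured activators and genes in their phase 0 were higher and 3 lower, against 160 higher and 135 lower of 19505 symbols.

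Dbp stood at 17.93 with intermittent CS, 18.02 with continuous CS and 9.67 with air, a 306-fold difference between intermittent CS and air. Nr1d1 was 14.28 with intermittent CS, 14.43 with continuous CS and 8.47 with air (56.4-fold), and its relative Nr1d2 was 13.07 with intermittent CS, 13.02 with continuous CS and 9.21 with air (14.5-fold). In all of these genes both smoke arrays lay together, far above air. The Period genes followed with 12.73 for Per3 with intermittent CS against 9.08 with air (12.5-fold), 11.37 against 8.92 for Per2 (5.46-fold) and 12.01 against 9.64 for Per1 (5.16-fold). Ciart, a repressor of the ARNTL complex, was 8.96 with intermittent CS, 9.61 with continuous CS and 5.62 with air (10.1-fold). Bhlhe41, an E-box repressor, was 7.60 with intermittent CS, 8.04 with continuous CS and 5.76 with air (3.58-fold).

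The activators Npas2 and Arntl ran the other way. Npas2 was 6.07 with intermittent CS and 11.67 with air, 48.5-fold lower with intermittent CS than with air. Arntl was 6.56 with intermittent CS, 7.01 with continuous CS and 12.03 with air (44.1-fold lower). Nfil3 was 6.76 with intermittent CS against 9.33 with air (5.95-fold lower). Nfil3, a D-box repressor, is counted with the activators for its phase. Cry1 was the 1 gene of the repressor and output list that was lower, at 5.32 on both smoke arrays and 8.19 with air (7.31-fold). Not every clock gene stood apart. Clock itself was 14.08 with intermittent CS and 14.79 with air, Cry2 12.89 with intermittent CS and 12.30 with air, Rora 10.41 with intermittent CS and 10.09 with air, and Bhlhe40 16.13 with intermittent CS and 16.15 with air. The sources used here do not give the hour of day at which each pool was collected. Its part in these values, and in every other difference described here, was not tested, as each exposure has 1 pool.

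**Figure D2:**
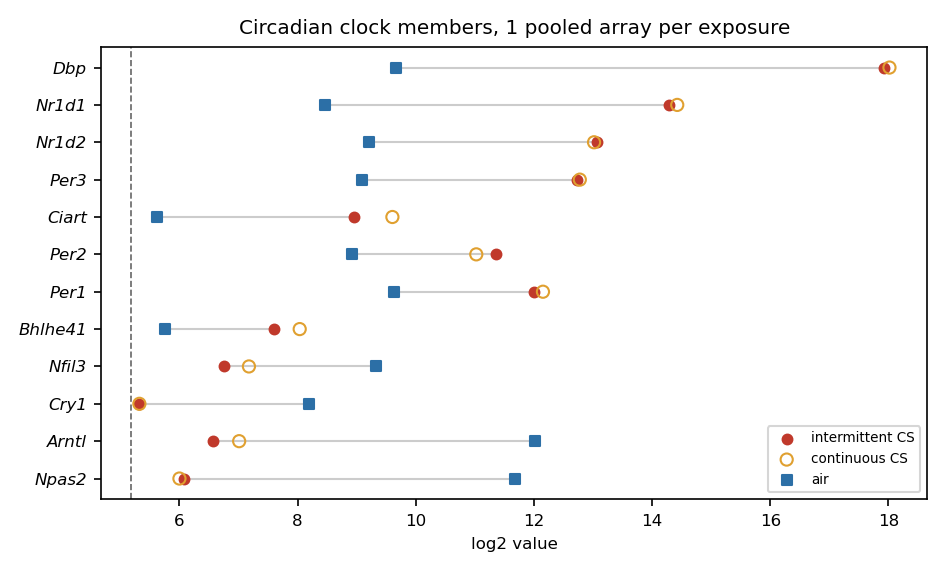
Values (log2, horizontal) of the 12 clock members on the intermittent CS (red), continuous CS (open yellow) and air (blue square) arrays, 1 pooled array each, with the dashed line at the receptor level of the air array. In the 8 upper rows the smoke arrays lie above air and in the 4 lower rows below it, and the smoke arrays are at most 0.65 apart, in Ciart.

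Promoter stretches of clock members are shown where they hold the letters through which the loop is known to act, because the clock genes were the farthest apart. They come from RefSeq (mouse assembly GRCm38.p6), from windows of 250 bases before to 50 bases after the transcript start. Of the 12 clock members 11 had such windows, 13 in all. Both strands were searched for the E-box CACGTG, the D-box TTATGTAA and the ROR element core TAGGTCA, each capitalized below together with 20 bases on either side where the window reaches. The D-box and the ROR core were added after the values had been seen. No motif overlaps another in the stretches shown.
Ciart (chr3:95882247-95882364, minus strand; E-boxes 116, 58 and 44 bases before the start): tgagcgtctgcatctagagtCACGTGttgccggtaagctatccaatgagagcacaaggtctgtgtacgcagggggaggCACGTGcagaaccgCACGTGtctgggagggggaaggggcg
Per1 (chr11:69098763-69098808, plus strand; E-box 166 bases before the start): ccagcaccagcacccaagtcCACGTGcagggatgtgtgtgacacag
Bhlhe41 (chr6:145865548-145865593, minus strand; E-box 153 bases before the start): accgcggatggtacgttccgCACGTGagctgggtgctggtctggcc
Cry1 (chr10:85185089-85185134, minus strand; E-box 60 bases before the start): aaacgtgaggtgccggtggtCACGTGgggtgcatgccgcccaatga
Per3 (chr4:151044796-151044890, minus strand; D-boxes 205 and 158 bases before the start): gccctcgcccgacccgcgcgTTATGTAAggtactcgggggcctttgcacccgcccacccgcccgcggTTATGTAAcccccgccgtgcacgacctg
Arntl (chr7:113207521-113207560, plus strand; ROR core 30 bases after the start): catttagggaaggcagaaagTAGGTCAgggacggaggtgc
Nfil3 (chr13:52981025-52981071, minus strand; ROR core on the opposite strand, 12 bases before the start): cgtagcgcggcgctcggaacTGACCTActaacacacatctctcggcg

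The E-box stood in the windows of 3 higher clock members (Ciart, Per1, Bhlhe41) and of 1 lower one, Cry1, so its presence did not go with 1 direction. The D-box was found in Per3, which was higher, and the ROR core in Arntl and Nfil3, which were lower. The windows of Dbp, Nr1d1, Nr1d2 and Npas2 held none of the 3 motifs. Of all 32851 windows 7.15% held an E-box, 0.938% the D-box and 2.61% the ROR core. Over all members with windows, the E-box was in 24 of 184 windows of higher genes (13.0%) and in 12 of 147 windows of lower genes (8.16%), and windows of 1 gene can overlap. The D-box was in 1 of 184 windows of higher genes (0.544%), that of Per3, and in 0 of 147 windows of lower genes. The ROR core was in 1 of 184 windows of higher genes, that of Vdac1, and in 8 of 147 windows of lower genes (5.44%). The cyclic AMP response element TGACGTCA was in 4 and 3 of these windows, against 1.79% of all windows. A match describes letters in a window and does not show binding.

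Several genes that break down fatty acids were higher with intermittent CS. In mitochondrial oxidation, CPT1A and the carnitine carrier SLC25A20 bring long-chain fatty acids into the organelle, where acyl-CoA dehydrogenases and enoyl-CoA isomerases shorten them. Cpt1a was 11.26 with intermittent CS, 9.59 with continuous CS and 8.57 with air, 6.48-fold higher with intermittent CS than with air. Slc25a20 was 9.82 with intermittent CS, 8.86 with continuous CS and 8.79 with air (2.05-fold). Eci2, an enoyl-CoA isomerase, was 12.95 with intermittent CS, 12.08 with continuous CS and 11.36 with air (3.01-fold), and Acadl, the long-chain dehydrogenase, 11.94 with intermittent CS, 11.33 with continuous CS and 10.92 with air (2.03-fold). These 4 were the members among 25 measured genes of mitochondrial fatty acid oxidation, and 0 were lower. Of the 23 above the receptor level 15 differences were positive, 4 negative and 4 exactly 0, with a median of 0.15, beside a median of 0.00 over all symbols, so the difference lay in a few steps of the pathway. Dehydrogenase genes Acadm and Acads held the same value with intermittent CS and air, 7.55 and 6.70, and Hadhb, a subunit of the trifunctional protein, was 10.12 with intermittent CS and 10.56 with air.

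In the peroxisome, which shortens very long fatty acids, the isomerase Eci3 was the 1 member, at 6.44 with intermittent CS, 5.42 with continuous CS and 5.26 with air (2.27-fold). Of 14 peroxisomal genes above the receptor level 12 differences were positive and 1 negative, with a median of 0.27. Pex11a, a peroxisome division gene, was 9.26 with intermittent CS and 8.52 with air. Thioesterases free fatty acids from coenzyme A. The cytosolic Acot1 was 13.57 with intermittent CS, 11.70 with continuous CS and 11.59 with air (3.95-fold), and the mitochondrial Acot2 14.85 with intermittent CS, 14.06 with continuous CS and 13.68 with air (2.25-fold). The sequences of Acot1 and Acot2 are so alike that signal could be shared between their probes. For Acot1, Slc25a20 and Eci3 the continuous CS value lay by the air value, unlike in the clock genes.

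Among genes that the fatty acid receptors (PPARs) control, Angptl4, a secreted inhibitor of lipoprotein lipase, was 7.75 with intermittent CS and 6.31 with air (2.71-fold). The carrier Fabp3 was 5.66 with intermittent CS and 4.28 with air, at least 1.39-fold higher. The coactivator Ppargc1a, which drives mitochondrial genes, was 8.87 with intermittent CS and 7.55 with air (2.48-fold), and the Krüppel-like factor Klf11 8.26 with intermittent CS, 7.24 with continuous CS and 6.12 with air (4.42-fold). They were the 4 members of 40 measured PPAR and lipid storage genes, and the median of the 26 above the receptor level was 0.05. The respiratory chain had no member among 59 genes, with 39 positive and 13 negative differences and a median of 0.07.

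Other lipid genes split. Gdpd1, a glycerophosphodiester phosphodiesterase, was 12.65 with intermittent CS and 10.48 with air (4.49-fold), the lipid droplet gene Tmem159 11.31 with intermittent CS and 9.83 with air (2.78-fold), and the phosphatidate phosphatase Lpin2 13.00 with intermittent CS and 11.51 with air (2.80-fold). Phosphatidylcholine, the main lipid of surfactant, is built by enzymes whose genes differed in direction. Pcyt1a, the rate-limiting enzyme, was 11.07 with intermittent CS and 12.10 with air (2.03-fold lower), and Chpt1, which carries out the last step, was 12.74 with intermittent CS and 11.67 with air (2.10-fold higher). Mfsd2a, an importer of lysophosphatidylcholine, was 11.09 with intermittent CS and 12.25 with air (2.24-fold lower), and Cds1, on the branch to phosphatidylglycerol, 8.38 with intermittent CS and 9.68 with air (2.47-fold lower).

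Among cholesterol genes the 1 member was Cyp51, the lanosterol demethylase, at 10.49 with intermittent CS, 10.95 with continuous CS and 11.72 with air (2.36-fold lower). Of 23 genes of cholesterol synthesis and uptake, all above the receptor level, 18 differences were negative, 4 positive and 1 exactly 0, with a median of -0.43. The median continuous CS minus air difference was -0.01. Squalene epoxidase (Sqle) was 9.51 with intermittent CS and 10.43 with air, the synthase gene Hmgcs1 14.19 with intermittent CS and 14.93 with air, and the sterol sensor gene Insig1 13.97 with intermittent CS and 14.73 with air.

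Acute phase proteins, which epithelia and liver secrete in inflammation, formed the second group with very large folds. Saa3, serum amyloid A3, was 11.11 with intermittent CS, 10.36 with continuous CS and 5.71 with air (42.2-fold higher with intermittent CS than with air). Orm1, an orosomucoid, was 9.52 with intermittent CS, 9.29 with continuous CS and 6.46 with air (8.34-fold). Its near-identical copy Orm2 was 7.51 with intermittent CS and 4.42 with air, at least 5.01-fold higher, and the copies may share signal. Haptoglobin (Hp), which binds free hemoglobin and is also a club cell marker, was 17.06 with intermittent CS and 15.88 with air (2.26-fold). Ceruloplasmin (Cp), the copper oxidase of plasma, was 11.92 with intermittent CS and 10.29 with air (3.09-fold), and Serpina3n, a serine protease inhibitor, 6.74 with intermittent CS and 5.46 with air (2.43-fold). Tissue factor (F3), which starts coagulation, the complement protease C1ra and the complement inhibitor Cd59a were 2.06-fold to 2.66-fold higher. Of 24 measured acute phase genes 5 were higher and 0 lower, Cp not being on the list. The median of the 15 above the receptor level was 0.09. Saa1 held 5.23 with both exposures, and Lcn2 was at the highest value on every array.

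Enzymes that handle foreign compounds, heme and reactive oxygen gave 17 members, all higher, in a function assigned after the values were seen. Measured genes of this function were not counted. Over all clusters 0.784% were higher and 0.675% lower. Cyp2b10, a cytochrome P450 of the constitutive androstane receptor's targets, was 15.33 with intermittent CS, 15.19 with continuous CS and 13.69 with air (3.11-fold). Sult1a1, a phenol sulfotransferase, was 11.38 with intermittent CS and 9.54 with air (3.59-fold), and the flavin monooxygenase Fmo4 was 7.13 with intermittent CS and 4.65 with air, at least 3.85-fold higher. Alas1, which starts heme synthesis, was 14.96 with intermittent CS and 13.75 with air (2.31-fold). The pantetheinases Vnn3 and Vnn1, related in sequence, were 4.73-fold and 2.34-fold higher. Glutathione transferases Gsta3 and Mgst2, the epoxide hydrolase Ephx1, the metallothionein Mt2, the NAD kinase Nadk and the paraoxonase Pon1 were between 2.01-fold and 2.97-fold higher. Of 38 measured genes of P450 and other xenobiotic enzymes 4 were higher and 0 lower, with a median of 0.23 over the 23 above the receptor level. Of 51 antioxidant and glutathione genes 3 were higher and 0 lower, with a median of 0.11. Targets of the aryl hydrocarbon receptor, which binds compounds of smoke, gave 1 member of 11, the amino acid carrier Slc7a5, and Nqo1 held 5.20 with both exposures, close to the receptor level.

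**Figure D3:**
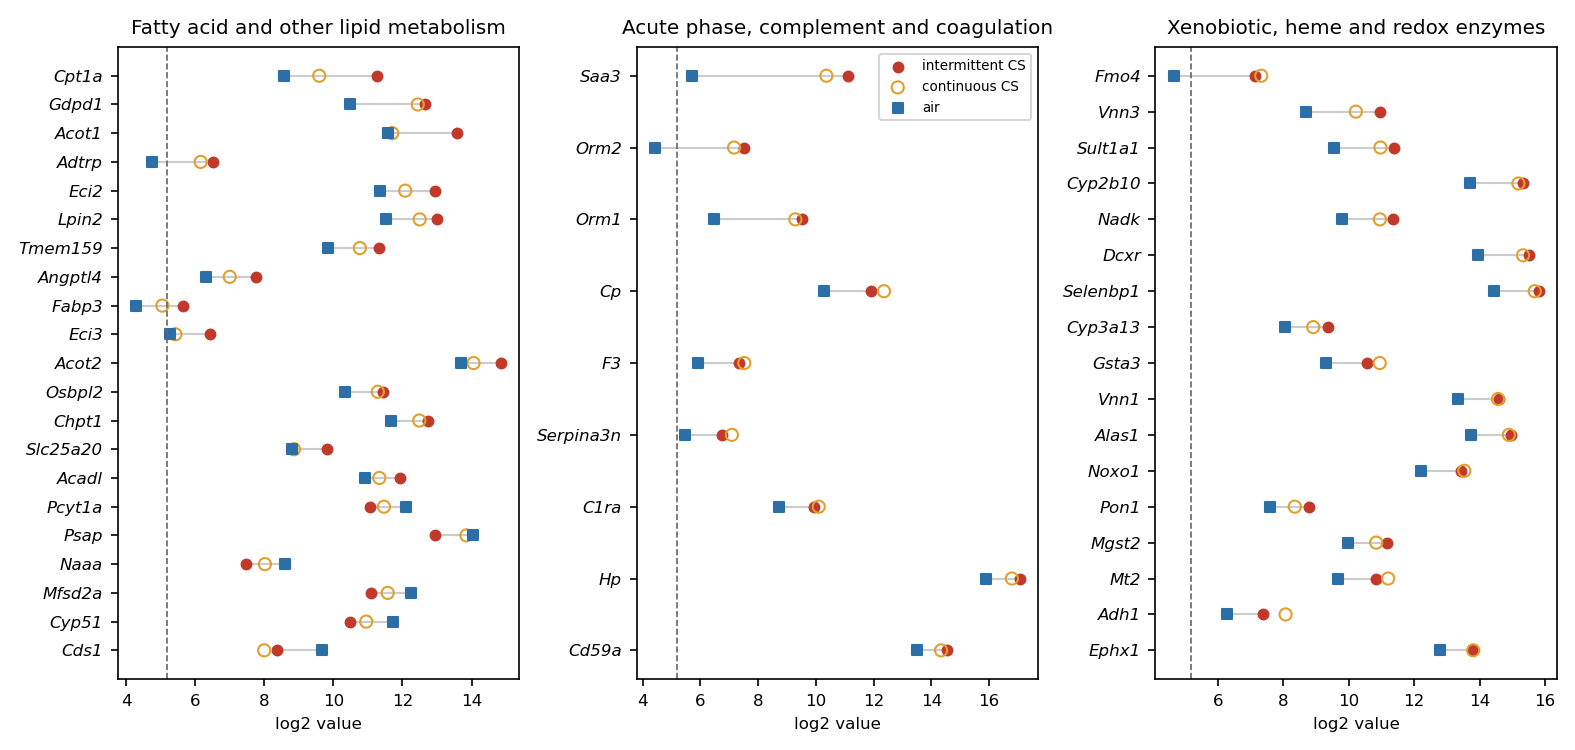
Values (log2, horizontal) of members of lipid metabolism, the acute phase and xenobiotic enzymes on the intermittent CS (red), continuous CS (open yellow) and air (blue square) arrays, 1 pooled array each, with the dashed line at the receptor level of the air array. Saa3 spans 11.11 with intermittent CS and 5.71 with air, and in Acot1, Eci3 and Slc25a20 the yellow ring lies on or beside the blue square.

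Carriers and channels, also grouped after the values were seen and without a count of those measured, gave 13 higher and 3 lower members. Over all clusters 0.784% were higher and 0.675% lower. Slc13a3, a dicarboxylate carrier, was 8.74 with intermittent CS, 8.29 with continuous CS and 6.04 with air (6.49-fold). Slc7a5, which imports large neutral amino acids, was 10.80 with intermittent CS and 8.93 with air (3.66-fold), and its relative Slc7a8 10.52 with intermittent CS and 9.45 with air (2.11-fold). The sodium channel subunit Scnn1a, through which AT2 cells take up fluid from the airspace, was 16.40 with intermittent CS, 16.46 with continuous CS and 15.24 with air (2.24-fold). Copper carriers Slc31a1 and Atp7b were 2.08-fold and 2.04-fold higher. The monocarboxylate carrier family split, with Slc16a7 2.63-fold higher and Slc16a6 2.63-fold lower. The potassium channel subunit Kcne2 was 11.31 with intermittent CS and 12.40 with air (2.12-fold lower).

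Several members sense nutrients for the growth kinase complex mTORC1. The leucine sensor Sesn2 was 6.75 with intermittent CS and 5.58 with air (2.25-fold), and the arginine sensor Castor1 6.99 with intermittent CS and 5.79 with air (2.31-fold). Folliculin (Flcn) was 12.12 with intermittent CS and 10.61 with air (2.85-fold), while its partner Fnip2 was 8.04 with intermittent CS and 9.62 with air (3.00-fold lower). Sesn3 was 11.23 with intermittent CS and 12.44 with air (2.32-fold lower). Members of 1 complex or family thus stood on opposite sides. The autophagy genes Wipi1 and Calcoco1 were 2.59-fold and 2.37-fold higher. Pdp2, the phosphatase that activates pyruvate dehydrogenase, was 4.70 with intermittent CS and 6.39 with air, at least 2.37-fold lower. The glucose uptake and glycolysis list had no member among 35 genes.

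Among transcription factors outside the clock, several are known to be induced by glucocorticoids. Zbtb16 was 10.40 with intermittent CS, 10.27 with continuous CS and 8.14 with air (4.81-fold). Klf15 was 8.47 with intermittent CS and 7.09 with air (2.60-fold), Klf9 13.30 with intermittent CS and 12.26 with air (2.05-fold) and Cebpd 12.26 with intermittent CS and 11.03 with air (2.35-fold). Of 26 measured glucocorticoid response genes 8 were higher and 1 lower, with a median of 0.54 over the 21 above the receptor level, and the 8 are Zbtb16, Klf9, Cebpd, Per1, Sult1a1, Angptl4, Mt2 and Errfi1. The 1 lower gene was Cdkn1a. Foxo3, a factor of the fasting response, was 9.36 with intermittent CS and 8.27 with air (2.13-fold), and Eya1, a developmental coactivator, 9.23 with intermittent CS and 10.64 with air (2.66-fold lower).

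Some immediate early genes, which respond within minutes to outside signals, were lower. Atf3 was 12.13 with intermittent CS, 12.93 with continuous CS and 14.18 with air (4.14-fold lower). Fosb was 13.10 with intermittent CS, 14.32 with continuous CS and 14.71 with air (3.05-fold lower), and Nr4a3 9.63 with intermittent CS and 10.80 with air (2.25-fold lower). Of 33 measured genes 0 were higher and 3 lower, and of the 32 above the receptor level 19 differences were negative and 9 positive, with a median of -0.17. Fos was 15.75 with intermittent CS and 16.68 with air, whereas Klf6 and Ier3 held equal values. Cdkn1a, the cell cycle inhibitor p21, was 11.44 with intermittent CS, 11.66 with continuous CS and 13.36 with air (3.79-fold lower), and Sfn, another p53 target, 5.62 with intermittent CS and 7.32 with air (3.24-fold lower). Of 26 measured p53 targets on their list 1 was higher (Sesn2) and 1 lower (Cdkn1a). Of 47 genes of proliferation and DNA replication none was a member. The window search found the cyclic AMP response element in 3 of 31 promoter windows of immediate early genes, those of Btg2, Dusp1 and Maff, and none of these genes was a member.

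Signaling genes, grouped in the same way, were divided, with 15 higher and 13 lower, and relatives often differed in direction. Over all clusters 0.784% were higher and 0.675% lower. The kinase genes Pim3 and Pim1 were 8.78 and 12.30 with intermittent CS against 7.22 and 13.82 with air, 2.96-fold higher for Pim3 and 2.86-fold lower for Pim1. Of the suppressors of cytokine signaling, Socs2 was 16.52 with intermittent CS and 15.52 with air (2.01-fold higher) and Cish 8.46 with intermittent CS and 9.89 with air (2.68-fold lower). The MAP kinase phosphatases Dusp7 and Dusp10 were 2.09-fold higher and 2.10-fold lower. Fgfr3, a fibroblast growth factor receptor, was 11.25 with intermittent CS, 10.61 with continuous CS and 9.53 with air (3.29-fold), and Errfi1, which restrains the EGF receptor, 17.95 with intermittent CS and 16.59 with air (2.57-fold). The small GTPase Rasl11a was 11.76 with intermittent CS, 10.78 with continuous CS and 13.97 with air (4.61-fold lower), and the phosphoinositide phosphatase Inpp4b 9.33 with intermittent CS and 11.27 with air (3.83-fold lower). No gene of 47 in the Wnt list was a member, and in the BMP and TGF-beta list of 47 the 1 member was Tgfb3, at 9.67 with intermittent CS and 11.13 with air (2.74-fold lower).

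Cytokine and chemokine genes also went both ways. Cxcl5, a neutrophil attractant of AT2 cells, was 7.35 with intermittent CS, 7.55 with continuous CS and 10.05 with air (6.52-fold lower). Cxcl1, which acts on the same receptor, was 9.69 with intermittent CS, 8.81 with continuous CS and 8.50 with air (2.27-fold higher). Cxcl17, a mucosal chemokine, was 11.41 with intermittent CS and 9.97 with air (2.71-fold higher). The growth factors of macrophages were both higher, Csf2 (GM-CSF) at 9.90 with intermittent CS, 9.03 with continuous CS and 8.72 with air (2.27-fold) and Csf1 (M-CSF) at 13.60 with intermittent CS and 12.53 with air (2.11-fold). The receptor gene Lifr was 2.81-fold higher, Tnfrsf9 2.86-fold higher and Il18r1 2.21-fold lower. Of 34 chemokine ligands 2 were higher and 1 lower, and of 42 cytokines and receptors 3 were higher and 2 lower, with medians of 0.00 and -0.11 above the receptor level.

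Genes of structure and traffic had moderate folds. Tns2, a tensin of focal adhesions, was 12.89 with intermittent CS, 12.85 with continuous CS and 10.19 with air (6.48-fold higher), and the actin cross-linker Actn1 12.04 with intermittent CS and 10.27 with air (3.41-fold higher). The integrin genes Itga6 and Itgb6, an epithelial receptor of laminin and an activator of TGF-beta, were 3.07-fold and 2.36-fold lower. Of the Rab GTPases of secretion, Rab3a and Rab3c were 2.52-fold and 2.11-fold higher, and Rab27a, Rab27b and Rab8b were 2.13-fold to 2.32-fold lower. Of the chaperone and endoplasmic reticulum stress genes, Herpud1, Fkbp11 and Hspa1b were 2.19-fold to 2.73-fold higher and Bag3 was 2.11-fold lower. The median was -0.06 over 36 genes of the unfolded protein and heat shock response. The ribosome biogenesis genes Wdr74, Wdr75, Noc2l and Ddx21 were 2.01-fold to 2.22-fold lower.

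**Figure D4:**
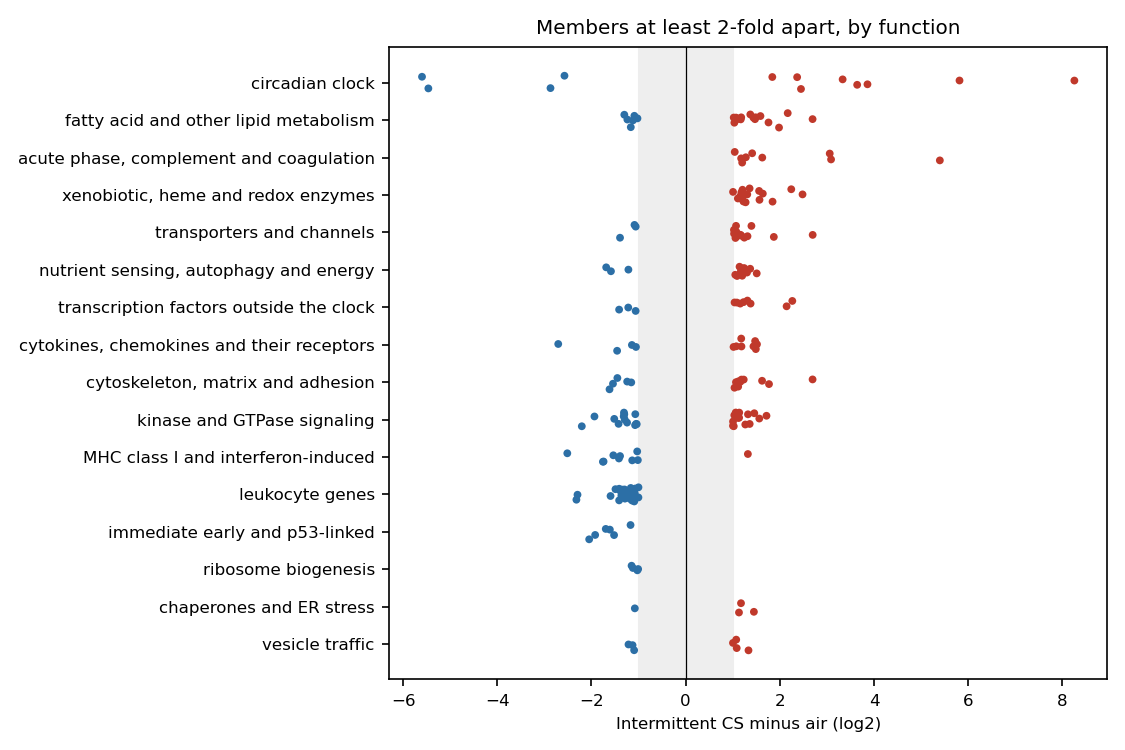
Difference between intermittent CS and air (log2, horizontal) of every member placed in 1 of 16 functions, 1 point per gene, red where higher and blue where lower with intermittent CS, with the range under 2-fold shaded. Functions were assigned after the values were seen. The acute phase and xenobiotic rows hold red points alone (Serpina10, a lower coagulation inhibitor, was placed in no function), the leukocyte, immediate early and ribosome biogenesis rows blue points alone.

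Several genes of antigen presentation by MHC class I were at least 2-fold lower with intermittent CS. Cells load peptides that the TAP carrier brings into the endoplasmic reticulum onto class I chains paired with beta-2 microglobulin. B2m was 18.48 with intermittent CS, 19.31 with continuous CS and 19.50 with air (2.04-fold lower). Tap1 was 10.42 with intermittent CS, 11.41 with continuous CS and 12.17 with air (3.38-fold lower). The class I genes H2-Q4 and H2-Q5 were 10.97 and 10.22 with intermittent CS against 12.36 and 12.73 with air, 2.63-fold and 5.71-fold lower, although probes of such near-identical genes may share signal. Of 20 class I and peptide loading genes 0 were higher and 3 lower, H2-Q5 not being on the list, and 15 differences were negative and 3 positive, with a median of -0.54 and a median continuous CS minus air difference of 0.00. H2-K1 was 17.48 with intermittent CS and 18.16 with air, whereas Tapbp, tapasin, was 13.89 with intermittent CS and 13.12 with air, the largest of the 3 positive differences. Among interferon-induced genes the GTPases Igtp, Iigp1 and Tgtp2 were 2.67-fold to 3.35-fold lower. Of 46 interferon response genes 0 were higher and 4 lower, with 23 negative and 8 positive differences among the 33 above the receptor level. The 4 were Igtp, Iigp1, Irf8 and Ifit1bl1, Tgtp2 not being on the list. Irf8 and Ifit1bl1 were at the receptor level or below with intermittent CS, at least 1.40-fold and 1.53-fold lower. Ifi30, a lysosomal thiol reductase, was the 1 higher member of the class I and interferon-induced function, at 16.49 with intermittent CS and 15.17 with air (2.50-fold). MHC class II, which AT2 cells also carry, had no member among 11 genes and a median of -0.27.

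Genes known from leukocytes gave 31 members, all lower with intermittent CS, in a function assigned after the values were seen. Measured genes of this function were not counted, and 0.675% of all clusters were lower. Tnfrsf9 and Ccr9, both higher, and Il1b, lower, are also known from leukocytes but were placed with the cytokines. Pik3ap1, an adaptor of B and myeloid cells, was 10.18 with intermittent CS, 10.70 with continuous CS and 12.47 with air (4.91-fold lower). Spi1, the PU.1 factor of myeloid cells, was 11.83 with intermittent CS, 13.29 with continuous CS and 13.06 with air (2.34-fold lower). Lilrb4a, an inhibitory myeloid receptor, was 9.08 with intermittent CS, 11.57 with continuous CS and 10.48 with air (2.63-fold lower). The continuous CS value lay below air in Pik3ap1 and above it in Spi1 and Lilrb4a. Neutrophil genes S100a8 and Retnlg were 3.02-fold and 2.66-fold lower, and Il1b was 10.18 with intermittent CS, 12.10 with continuous CS and 11.24 with air (2.08-fold lower). Xcr1, of cross-presenting dendritic cells, was 4.51 with intermittent CS and 6.83 with air, at least 3.22-fold lower. Of 11 measured dendritic cell markers 6 lay above the receptor level, 4 of them lower and 2 higher, with a median of -0.19. The markers Clec9a, Cd209a, Flt3 and Zbtb46 lay below that level with intermittent CS and with air. The T cell genes Cd3g and Il7r were 2.66-fold and 2.43-fold lower. In RNA of sorted cells, fewer cells of a type and less RNA per cell cannot be told apart.

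The marker lists of neutrophils, T cells and dendritic cells hold some of these members, so they are not separate evidence. Markers of leukocytes in general, which include the member Itgal, were mostly lower as well. Of 20 measured, 18 lay above the receptor level, of which 16 were lower with intermittent CS than with air, 1 equal and 1 higher. Their median was -0.60, beside a continuous CS minus air median of 0.10. Ptprc (CD45) was 10.20 with intermittent CS, 10.41 with continuous CS and 10.92 with air, and Lcp1, the 1 higher gene, 15.10 with intermittent CS and 14.79 with air. The log2 of the summed level was 15.53 with intermittent CS, 15.80 with continuous CS and 15.56 with air, most of it from Lcp1. Of 15 neutrophil markers above the receptor level 14 were lower and 1 equal, with a median of -0.59. Mmp8 and Mmp9 lay below the receptor level on both arrays. The continuous CS minus air median of the neutrophil markers was 0.24. The log2 of their summed level was 16.55 with intermittent CS, 16.44 with continuous CS and 17.10 with air, most of it from Hdc, also a mast cell marker, at 16.51 with intermittent CS, 16.32 with continuous CS and 17.05 with air. Of 12 T and NK cell markers 9 were lower and 3 higher, with a median of -0.34 beside -0.10 for continuous CS minus air. Macrophage and monocyte markers had a median of 0.00, with Marco and Siglecf below the receptor level with intermittent CS and air, and those of B cells a median of 0.16. Markers of endothelial cells had a median of -0.01, of fibroblasts 0.23 and of AT1 cells 0.08, beside continuous CS minus air medians of 0.91, 0.72 and 0.56. The part of other cells in the leukocyte, class I, interferon, acute phase and xenobiotic results was not tested.

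**Figure D5:**
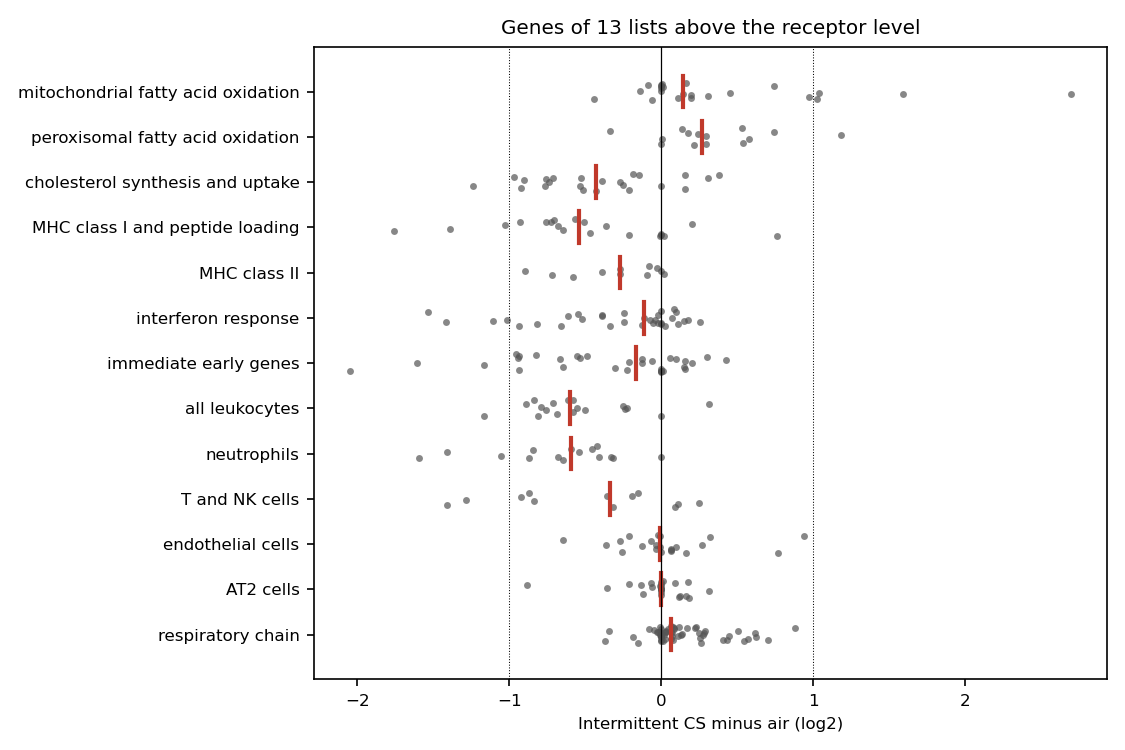
Difference between intermittent CS and air (log2, horizontal) of each gene above the receptor level in 13 lists, 1 grey point per gene, with the median of each list as a red bar and dotted lines at 2-fold. The bars of class I genes (-0.54), all leukocytes (-0.60) and neutrophils (-0.59) lie left of 0, and that of AT2 markers lies on it.

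Of the members with a symbol, 38 higher and 40 lower genes fell in none of these functions. Rgcc, a complement-responsive regulator of the cell cycle, was 12.63 with intermittent CS, 12.21 with continuous CS and 9.65 with air (7.86-fold higher). Ccnjl, a cyclin-like gene, was 4.65 with intermittent CS, 4.80 with continuous CS and 8.81 with air, at least 12.7-fold lower with the lowest difference (-4.16) after Npas2 and Arntl. Glipr2 was 7.94 with intermittent CS and 10.71 with air (6.83-fold lower), Klhl13 5.11 with intermittent CS and 7.76 with air (at least 6.14-fold lower) and Serpina10, which inhibits coagulation factors, 6.70 with intermittent CS, 8.26 with continuous CS and 9.27 with air (5.92-fold lower). Another 14 higher and 15 lower clusters carried no symbol. Of the receptor clusters that set the level, 1 was a higher member and 3 were lower members. Olfr170 among them was 10.72 with intermittent CS and 11.73 with air, far above the other receptors' level.

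At the edge of the rule, Gpr146, Dpep1 and Vamp8 were just inside with 2.00-fold to 2.01-fold higher values, and Prkca, Slc26a11 and Arg2 just outside at 1.98-fold to 1.99-fold. On the lower side Rasgrp3, Ms4a6b and Rce1 were 2.00-fold to 2.01-fold lower, and Kcnmb2, Wdr78 and Sdad1 1.99-fold to 1.998-fold. Arginase Arg2, just outside, was 12.19 with intermittent CS and 11.20 with air, and Vamp8, a vesicle fusion protein just inside, was 13.53 with intermittent CS and 12.52 with air.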

How the data were processed

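RNA of sorted AT2 cells, pooled from 3 mice per exposure, was hybridized by the authors to GeneChip Clariom S arrays, 1 per exposure, and processed with the Transcriptome Analysis Console. The authors deposited 1 log2 value per transcript cluster and array. The sources used here do not give the software version, summarization, scaling between arrays or the array's genome build. Symbols came from the platform annotation and were compared with RefSeq (GRCm38.p6), which changed 0 of them, and 19572 clusters had 1 symbol.

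Values were used as deposited, and the intermittent CS minus air difference was taken per cluster. Arrays give no counts, and their number, 3, limits precision. The members and lists were chosen with earlier results of these data known, and the 16 functions were assigned after the values had been seen. The rule for named genes took the 20 highest and 20 lowest members with a symbol, up to 8 members of each list by absolute difference, the 3 named genes nearest each threshold on either side, without unnamed or receptor clusters, and the leading markers of each cell type list. Further members and list genes were chosen after their values were seen. For genes with several clusters the one with the highest mean was taken. Steps were tested on simulated data. The scalings were made with limma 3.58.1 in R 4.3.3, the rest with Python 3.11.15 (numpy 2.4.6, pandas 2.3.3, matplotlib 3.10.9).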

Additional observations from a re-analysis of the deposited data

How the results depend on the processing

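A threshold of 1.5-fold gave 636 higher and 601 lower clusters, and one of 3-fold gave 36 higher and 39 lower. Under the other alternatives (median centring, quantile normalization, cyclic loess, an offset of 32 on the linear scale, values below the receptor level raised to it, the 99th receptor percentile, the array median as the filter, both arrays above the receptor level, no filter and symbols in place of clusters) the counts ran from 132 to 185 higher and from 105 to 159 lower, each within 1.5 times the count reported. The offset gave the lowest counts of these, with 132 of the 174 higher and 105 of the 150 lower clusters still 2-fold apart. Of the 113 named members 17 were under 2-fold with the offset, 4 with centring, 7 with quantile normalization, 5 with cyclic loess and 3 with values raised to the receptor level. The difference of 43 of 179 named genes with the offset and of 16 with values raised to the receptor level moved by more than the receptor standard deviation of 0.241. With values so raised the median log2 difference of glucocorticoid response genes, over all 26 measured, was 0.046 against 0.33 as deposited. No named member changed direction, but this says little. The offset cannot reverse a difference, and members at least 2-fold apart leave the other settings little room to do so. No replicate could be left out, and no paired analysis was possible because each exposure has 1 array. Dim members and values at the ceiling of 19.93 are the least well measured.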
